A study of Mus musculus with 30 samples.

Results

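The KDEL receptors are the 3 genes Kdelr1, Kdelr2 and Kdelr3, of 20300 genes with exonic counts and 17916 with intronic counts, followed here in mouse embryonic stem (ES) cells with and without the orphan nuclear receptor Esrrb. They were taken by symbol and chosen from the withdrawal response in these same counts, in which Kdelr3 exons had been seen to be lower, so the withdrawal values of all 3 receptors are given as a description, with no test. The 18 RNA-seq libraries came from EKOiE-Ccna-Gfp cells of strain 129/Ola in serum medium with LIF. All of these cells lack endogenous Esrrb function by knockout, carry an Esrrb transgene switched on by doxycycline (DOX) and bear a Ccna2-Gfp reporter by which they were sorted. Each phase (early G1, late G1, G2) had 3 libraries after 24 h without DOX (called withdrawn here) and 3 with DOX. Esrrb ChIP-seq comprised 12 libraries of strain 129/Ola. Mitotic cells gave 4 libraries with DOX and 2 after 48 h without it, and asynchronous cells (called interphase here) gave the same numbers. Replicate 2 of both DOX groups came from wild-type E14Tg2a cells and the other 10 libraries from EKOiE cells, the knockout line with the transgene. Separate cultures are not named in the labels, and the p-values therefore cover the spread among these libraries, which may be technical.

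KDEL receptors sit in the Golgi and in the compartment between it and the endoplasmic reticulum (ER). They bind the KDEL-type tail of soluble ER proteins that have escaped with the secretory flow, and carry them back in vesicles coated with COPI. Chaperones such as Hspa5 and Calr are kept in the ER in this way, and genes of this retrieval route are among those raised in the unfolded protein response, the set of reactions to misfolded protein in the ER. The receptors have overlapping cargo and are expressed in most tissues. Esrrb is best known in ES cells as a factor that sustains their undifferentiated state.

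Exonic totals ran from 16636870 to 31803844 counts in withdrawn libraries and from 11083765 to 18760440 in DOX libraries, and the deepest libraries were withdrawn ones. Esrrb exons averaged 162 ± 27.2 counts-per-million (CPM, scaled by TMM) after withdrawal and 242 ± 37.8 with DOX in early G1, 165 ± 7.21 and 317 ± 28.3 in late G1, and 190 ± 6.67 and 273 ± 27.0 in G2 (SD, n = 3 each). The fall in Esrrb passed in late G1 (log2 change -0.94 ± 0.14 SE; edgeR adjusted p = 0.00385), and in early G1 and G2 it passed with replicate number as a block (edgeR adjusted p = 0.0138 and 0.0123) but not without it (edgeR adjusted p = 0.12 and 0.0699). Exonic counts do not separate the knockout allele from the transgene, so they check the labels in part. The summed ES cell markers, which include Pou5f1 and Sox2, reached 4600 to 6310 CPM after withdrawal and 5150 to 6460 CPM with DOX, and all 9 were detected. Primitive endoderm markers summed to 5.18 to 15.3 CPM after withdrawal and 8.15 to 13.5 CPM with DOX. Fibroblast or feeder markers summed to 79.3 to 121 CPM after withdrawal and 73.2 to 100 CPM with DOX, with Vim the highest and Col1a1, Col3a1, S100a4 and Postn under 1 CPM in every library. Replicate 1 of the withdrawn G2 group was the deepest library and the least like its group (Pearson r across genes with the mean of its group mates 0.977 in exons and 0.9617 in introns).

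Kdelr3 was about 4 times lower in exonic counts after withdrawal in every phase, while the Kdelr1 and Kdelr2 groups overlapped in every phase. In early G1, Kdelr3 exons had 6.15, 6.30 and 5.24 CPM in the 3 withdrawn libraries, against 27.0, 25.1 and 18 CPM in the 3 DOX libraries. In late G1 they had 4.59, 7.70 and 4.38 CPM after withdrawal, against 26.3, 26.1 and 18.2 CPM with DOX. In G2 they had 3.44, 6.65 and 4.71 CPM after withdrawal, against 27.0, 24.1 and 19.0 CPM with DOX. Every withdrawn library lay below every DOX library of its phase, and replicate 3 was the lowest of the DOX libraries in each phase. Of the 14092 genes that passed the expression filter, 7.66%, 9.02% and 10% (early G1, late G1, G2) were separated in this direction, shares beside which nothing is read for Kdelr3, since the contrast chose it. These values rest on 78 to 131 raw counts per withdrawn library and 265 to 454 per DOX library.

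**Figure D1:**
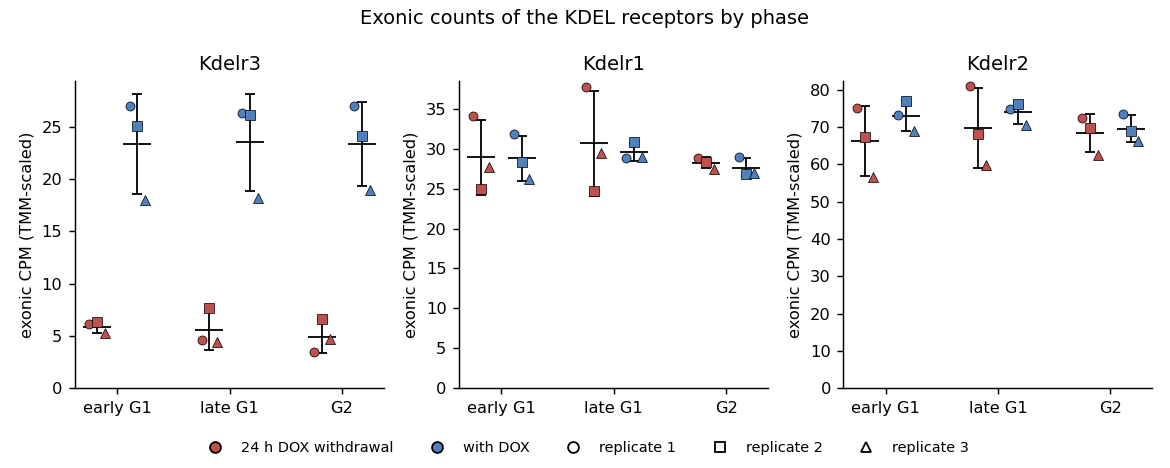
Exonic counts-per-million (TMM-scaled; y axis, starting at 0) of Kdelr3, Kdelr1 and Kdelr2 in early G1, late G1 and G2. Each symbol is 1 library (red, 24 h after DOX withdrawal; blue, with DOX; the shape gives the replicate number), with the group mean and SD in black. Kdelr3 lies at 3.44 to 7.70 CPM after withdrawal and 18 to 27.0 CPM with DOX, and the groups of the other receptors overlap in every phase.

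As a log2 change of exonic counts, withdrawn minus DOX, Kdelr3 stood at -1.99, -2.08 and -2.26 in early G1, late G1 and G2, with an SE of 0.26 each. The withdrawn level was 0.253, 0.236 and 0.209 of the DOX level in these phases. Without the deviating G2 withdrawn library the G2 value was -2.02 ± 0.28. In bulk samples, fewer cells that express a gene and less RNA per cell cannot be told apart.

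Kdelr1 exons averaged 28.9, 30.6 and 28.2 CPM after withdrawal in early G1, late G1 and G2, against 28.8, 29.6 and 27.6 CPM with DOX. Over the 18 libraries they ranged from 24.7 to 37.8 CPM, both extremes in the withdrawn late G1 group. The log2 changes were 0.01 ± 0.15, 0.05 ± 0.15 and 0.03 ± 0.15 (SE). Kdelr2 exons averaged 66.3, 69.7 and 68.3 CPM after withdrawal, against 73.0, 73.9 and 69.5 CPM with DOX, and the libraries ranged from 56.5 to 81.1 CPM. Their log2 changes were -0.14 ± 0.13, -0.08 ± 0.13 and -0.02 ± 0.13. For both paralogues the withdrawn and DOX libraries overlapped in all 3 phases. No transcript lengths were used, so levels are not set against each other between receptors.

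Kdelr3 held a smaller share of all KDEL receptor exonic counts after withdrawal, a ratio that needs no library scaling. The share (of raw counts, not per length) averaged 5.86% ± 0.528 after withdrawal and 18.5% ± 2.35 with DOX in early G1, 5.35% ± 2.06 and 18.4% ± 2.61 in late G1, and 4.87% ± 1.54 and 19.3% ± 2.08 in G2 (SD, n = 3 each). The 9 withdrawn libraries lay between 3.28% (95% Wilson interval 2.72 to 3.94) and 7.66% (6.48 to 9.03). The 9 DOX libraries lay between 15.4% (13.9 to 17.1) and 20.9% (19.2 to 22.6), above all withdrawn ones. Intervals cover counting error only. Kdelr1 and Kdelr2 together came to 95.3 ± 12.8 CPM after withdrawal and 102 ± 5.87 CPM with DOX in early G1, 100 ± 16.1 and 103 ± 3.78 in late G1, and 96.5 ± 5.85 and 97.1 ± 4.78 in G2. The 3 receptors summed to 101, 106 and 101 CPM after withdrawal in early G1, late G1 and G2, against 125, 127 and 120 CPM with DOX.

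**Figure D2:**
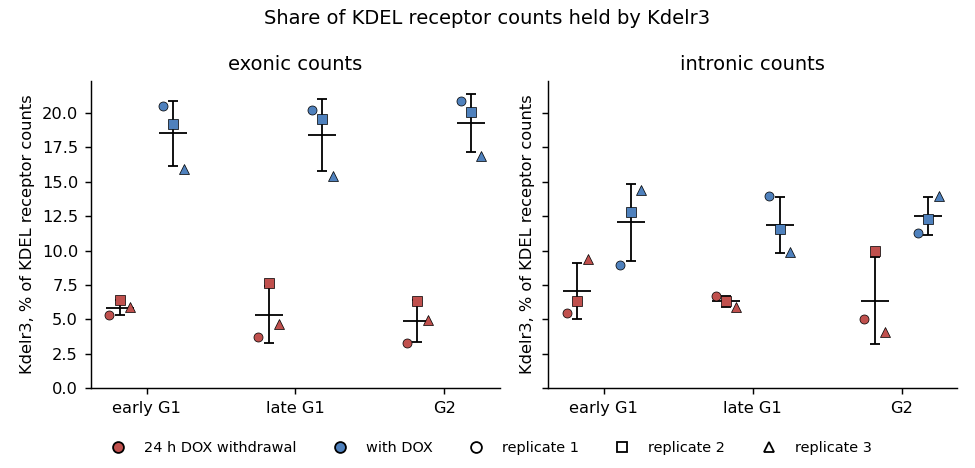
Share of all KDEL receptor counts held by Kdelr3 (percent; y axis, starting at 0) in exons (left) and introns (right), by phase. Each symbol is 1 library (red, 24 h after DOX withdrawal; blue, with DOX), with the group mean and SD in black. Exonic shares lie at 3.28 to 7.66% after withdrawal and 15.4 to 20.9% with DOX, and intronic shares differ less and overlap in early G1.

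Intronic counts, which come mostly from unspliced RNA, were lower for Kdelr3 as well, by a smaller ratio than in exons. In early G1, Kdelr3 introns had 2.51, 3.05 and 4.63 CPM after withdrawal, against 5.10, 6.47 and 8.55 CPM with DOX. In late G1 they had 3.10, 3.40 and 3.11 CPM after withdrawal, against 7.45, 7.08 and 6.13 CPM with DOX. In G2 they had 2.70, 4.0 and 2.33 CPM after withdrawal, against 6.88, 6.04 and 7.80 CPM with DOX. Each withdrawn library again lay below each DOX library of its phase, as did 5.7%, 5.76% and 5.24% of the 14075 intronic genes tested (early G1, late G1, G2). This separation is of scaled values. The share of receptor intronic counts held by Kdelr3, which needs no scaling, overlapped in early G1. It was 9.38% in withdrawn replicate 3 and 8.97% in DOX replicate 1. The log2 changes of Kdelr3 introns were -0.97 ± 0.26, -1.10 ± 0.26 and -1.23 ± 0.26 (SE), and they rest on 28 to 76 counts per withdrawn library and 35 to 91 per DOX library. The log2 changes of Kdelr1 introns were -0.01 ± 0.19, -0.17 ± 0.18 and -0.16 ± 0.18, and those of Kdelr2 introns -0.17, -0.11 and 0.00 with an SE of 0.17 each.

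**Figure D3:**
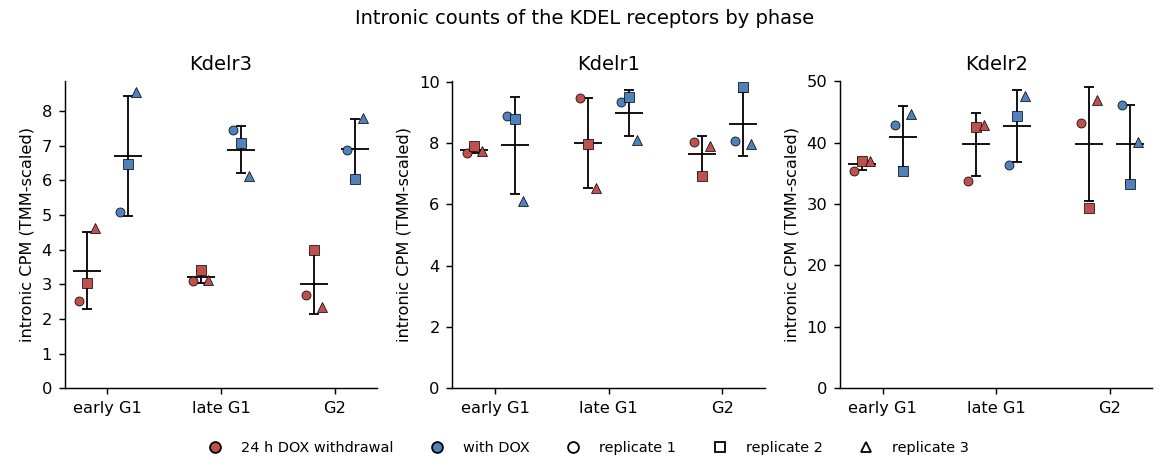
Intronic counts-per-million (TMM-scaled; y axis, starting at 0) of Kdelr3, Kdelr1 and Kdelr2 by phase. Each symbol is 1 library (red, 24 h after DOX withdrawal; blue, with DOX), with the group mean and SD in black. Kdelr3 introns lie at 2.33 to 4.63 CPM after withdrawal and 5.10 to 8.55 CPM with DOX, and the other receptors' groups overlap in every phase.

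The number of exonic counts for each intronic count in the same library was also lower for Kdelr3 after withdrawal. It averaged 3.14 ± 1.23 after withdrawal and 6.80 ± 3.00 with DOX in early G1, 2.88 ± 0.969 and 5.88 ± 0.777 in late G1, and 2.75 ± 0.770 and 6.14 ± 1.69 in G2 (SD, n = 3 each). The early G1 ranges touched, at 1.72 to 3.90 after withdrawal and 3.75 to 9.74 with DOX. In Kdelr1 the same ratio averaged 6.11, 6.38 and 6.19 after withdrawal and 6.66, 5.72 and 5.72 with DOX, and in Kdelr2 3.01, 2.97 and 3.03 after withdrawal and 3.25, 3.03 and 3.17 with DOX. Since introns are counted over much longer stretches than exons, the ratio is not set against another gene. It uses raw counts and is not scaled for the exonic and intronic totals, whose balance differed between libraries. In early G1 these totals were 12103337 and 10293271 counts in DOX replicate 1, against 18567561 and 9273440 in DOX replicate 3. Differences in this ratio between libraries or between states are therefore given as a description only.

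Between phases, which the choice of the receptors did not use, no receptor passed the test in exons or introns. The exonic log2 differences between phases ran from -0.12 to 0.08 for Kdelr1, -0.09 to 0.07 for Kdelr2 and -0.27 to 0.01 for Kdelr3, in 6 comparisons each. The difference of largest size was that of Kdelr3, G2 minus early G1 after withdrawal (-0.27 ± 0.26 SE; unadjusted p = 0.316; edgeR adjusted p = 0.984). By phase (early G1, late G1, G2), Kdelr3 averaged 5.90 ± 0.569, 5.56 ± 1.86 and 4.93 ± 1.62 CPM after withdrawal and 23.4 ± 4.75, 23.5 ± 4.63 and 23.4 ± 4.06 CPM with DOX. The differences of the Kdelr3 response between phases, given as a description since they are built from the withdrawal contrast, were -0.10 ± 0.36 for late G1 minus early G1, -0.27 ± 0.36 for G2 minus early G1 and -0.17 ± 0.36 for G2 minus late G1 (SE). The contrasts between phases within 1 state called 0% of all genes in exons and in introns by edgeR with or without the replicate block, and 0 by DESeq2. Of 14092 genes, 136 to 588 had an unadjusted exonic p under 0.05 in these contrasts, and none of them was a receptor. These numbers are below the share of 0.05 that chance alone would give, so the tests were conservative. Not passing them does not show that the receptors are steady between phases.

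In mm9, the build the files use, Kdelr3 (NM_134090) lies on the plus strand at chr15:79346837-79358169, Kdelr1 (NM_133950) on the plus strand at chr7:53128209-53139096 and Kdelr2 (NM_025841) on the plus strand at chr5:144165498-144182955. The promoter windows of the 2 receptors with an entry in the RefSeq table (build GRCm38.p6, plus strand, 250 bases before to 50 after the start) are shown because they differ in a motif of the unfolded protein response. They lie in that build at chr15:79516158-79516457 for Kdelr3 and chr7:45872590-45872889 for Kdelr1. Capitals mark the match to the unfolded protein response element TGACGTGG, a site bound by XBP1 and ATF6.
Kdelr3: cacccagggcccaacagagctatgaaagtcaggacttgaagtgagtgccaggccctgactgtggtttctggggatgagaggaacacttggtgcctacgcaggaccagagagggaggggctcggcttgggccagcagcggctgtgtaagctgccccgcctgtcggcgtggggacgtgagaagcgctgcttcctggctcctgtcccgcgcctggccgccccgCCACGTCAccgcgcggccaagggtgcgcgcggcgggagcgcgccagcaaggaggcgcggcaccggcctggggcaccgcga
Kdelr1: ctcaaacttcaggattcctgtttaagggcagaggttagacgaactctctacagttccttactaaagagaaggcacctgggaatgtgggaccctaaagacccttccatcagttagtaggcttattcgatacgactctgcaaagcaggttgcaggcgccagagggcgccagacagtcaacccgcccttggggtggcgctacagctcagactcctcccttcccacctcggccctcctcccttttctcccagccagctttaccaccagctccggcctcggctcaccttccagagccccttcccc
The Kdelr3 window holds 1 match, on the opposite strand with its first base 30 bases before the start, and the Kdelr1 window holds none; 0.676% of 32851 such windows hold one on either strand. Neither window holds the Esrrb site TCAAGGTCA (0.423% of windows) or the shorter half-site AAGGTCA that lies within it (4.72%). Neither holds the ER stress element (0.119% of windows) or the ER stress element II (0.0365%), and all motifs were searched on both strands. The Kdelr3 window is 69.7% and the Kdelr1 window 57.0% G or C. A match describes the letters alone.

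Esrrb bound near all 3 receptor genes, and 6 of the 14559 deposited peaks lay within 50 kb of their starts. Kdelr3 had 3 of them, Kdelr1 2 and Kdelr2 1; of all genes, 51.0% had at least 1 peak within this distance, 29.7% at least 2 and 17.8% at least 3. No peak covered a receptor start. The peak nearest to Kdelr3 lay inside the gene, at chr15:79348651-79350900, with its centre 2.9 kb after the start. The other 2 lay upstream, with centres 13.9 kb (chr15:79332751-79333200) and 12.7 kb (chr15:79333651-79334550) before the start, both inside Kcnj4 and nearer to the Kcnj4 start. Of the Kdelr1 peaks, the one 15.5 kb upstream (chr7:53112301-53113200) lay inside Grin2d and the one 24.4 kb downstream (chr7:53152351-53152950) at the start of Tmem143. The Kdelr2 peak lay 29.8 kb downstream, between genes (chr5:144194551-144196050). The authors class the 5 peaks of Kdelr3 and Kdelr1 as Lost and that of Kdelr2 as Bookmarked; over all peaks, 12579 are Lost and 1980 Bookmarked. The 50 kb limit fell between the Kdelr2 peak, the farthest inside, and a Lost peak 51.4 kb upstream of Kdelr3, the nearest outside.

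**Figure D4:**
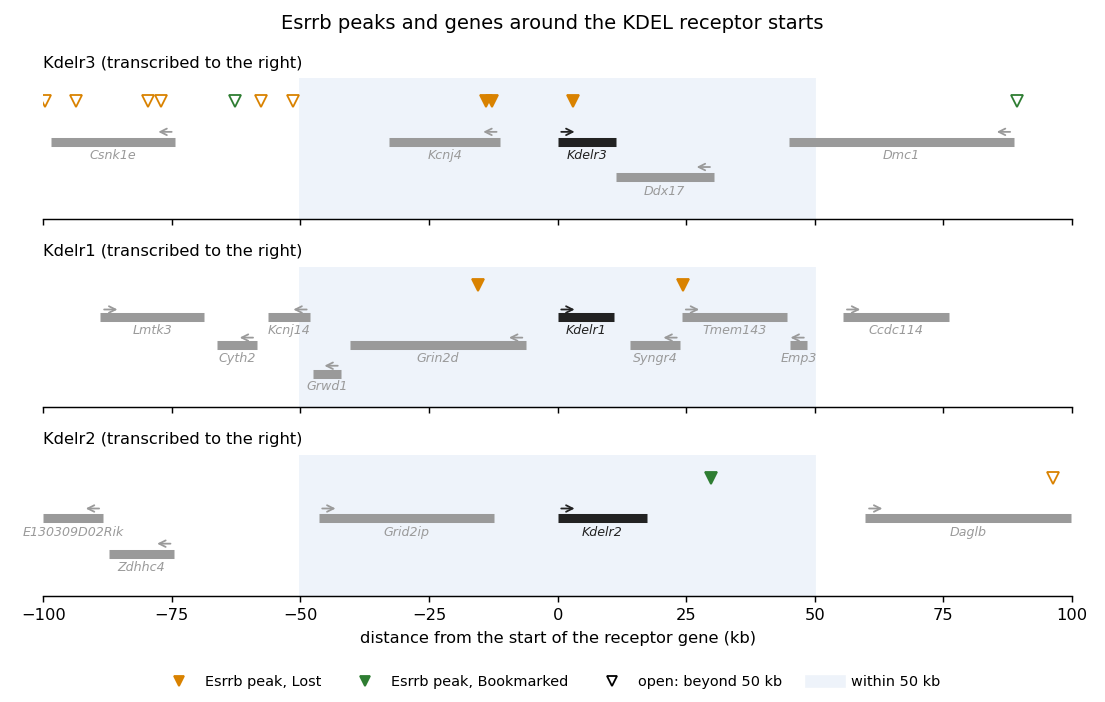
Distance from the start of Kdelr3, Kdelr1 and Kdelr2 (kb; x axis) of Esrrb peaks (triangles; orange, Lost; green, Bookmarked; open, beyond 50 kb) and of the genes whose starts lie within 100 kb (bars, with arrows for the direction of transcription). Within 50 kb, Kdelr3 has 3 peaks, of which the one at 2.9 kb lies inside the gene; Kdelr1 has 2 and Kdelr2 1.

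Peak heights are log2 reads-per-million per kb of peak. For the peak inside Kdelr3 they were -1.77, -0.69, -0.50 and -1.12 in the 4 mitotic DOX libraries, against 0.87, 1.75, 1.38 and 2.78 in the 4 interphase DOX libraries. Every mitotic library was below every interphase one, and the difference was -2.72 ± 0.69 (SE; limma adjusted p = 0.00129). For the peak 13.9 kb upstream they were -2.62, -0.02, 0.22 and -0.47 in mitosis, against 0.28, 1.36, 0.61 and 2.19 in interphase, and for that 12.7 kb upstream -2.30, -0.68, -1.09 and -0.41 in mitosis, against -0.17, 1.11, 0.92 and 1.59 in interphase. The differences were -1.83 ± 0.71 and -1.98 ± 0.80 (limma adjusted p = 0.0197 and 0.0234). Both missed the threshold without the E14Tg2a libraries (limma adjusted p = 0.0606 and 0.0728), without interphase replicate 2 (0.0536 and 0.061) or 4 (0.0736 and 0.0616), and without mitotic replicate 1 (0.113 and 0.0737). Without mitotic replicate 1 the first difference was -1.20.

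The upstream Kdelr1 peak had heights of -3.03, -1.07, -0.73 and -0.68 in mitosis, against -0.77, 1.02, 1.59 and 3.45 in interphase, so its lowest interphase library lay within the mitotic range. The downstream one had -1.45, 0.09, -0.09 and 0.65 in mitosis, against 0.95, 1.94, 2.15 and 3.76 in interphase. Their differences were -2.70 ± 0.86 and -2.40 ± 0.67 (limma adjusted p = 0.00631 and 0.00254). At the Kdelr2 peak it was -1.22 ± 0.44 (limma adjusted p = 0.0128). This peak had heights of 1.03, 0.93, 0.70 and 0.89 in mitosis, against 1.30, 1.87, 2.13 and 3.15 in interphase. Its mitotic libraries thus stood close together, just under the lowest interphase library. The regions are peaks because Esrrb signal is high in them. The Kdelr3 and Kdelr1 peaks are also of the Lost class, whose rule is not given and may use these heights. All 6 peaks passed as lower in mitosis, but so did 91.4% of all peaks, whose median difference was -2.26, so nothing is read from their passing. Relative to that median the Kdelr2 peak stood 1.03 higher, the Kdelr3 peaks stood 0.43 and 0.28 higher upstream and 0.46 lower inside the gene, and the Kdelr1 peaks stood 0.44 and 0.14 lower. With each library centred on its own median, none of the 6 differences passed.

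In interphase the 6 peaks were higher with DOX than after 48 h of withdrawal, as were 99.6% of all peaks (median difference 3.74). The regions are peaks because Esrrb signal is high in them, so these differences are given as a description, with no test. Which libraries the peaks were called on is not stated, and the comparisons that use mitotic libraries may share this limit. The peak inside Kdelr3 averaged 1.70 ± 0.81 with DOX (SD, n = 4), against -3.32 and -1.75 in the 2 withdrawn libraries, which hold 6 and 27 reads there. The difference was 4.23 ± 0.85 (SE). It was 4.49 ± 0.87 and 3.84 ± 0.98 for the peaks 13.9 kb and 12.7 kb upstream. These peaks hold 22 to 74 reads per interphase DOX library and 1 to 14 per withdrawn one. Without withdrawn replicate 1 the difference at the peak 12.7 kb upstream was 2.24. The Kdelr1 peaks, which hold 0 to 5 reads upstream and 0 to 9 downstream per withdrawn library, differed by 5.12 ± 1.05 and 4.99 ± 0.82. The Kdelr2 peak differed by 3.42 ± 0.54. Both sets of differences use the interphase DOX libraries, so they are not independent. Centred on each library's median, the 6 differences were -0.23 to 1.47.

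In mitosis the same comparison called the downstream Kdelr1 peak (2.43 ± 0.82; limma adjusted p = 0.0368) and the Kdelr2 peak (1.83 ± 0.54; limma adjusted p = 0.0231), beside 22.4% of all peaks as higher with DOX and a median difference of 1.33. Of all peaks 0 were called lower. Regions chosen for high Esrrb signal may favour this direction, so nothing is read from these calls. The downstream Kdelr1 peak holds 0 and 11 reads in the 2 mitotic withdrawn libraries, so 1 of these heights rests on no read. None of the Kdelr3 peaks passed: the peak inside the gene differed by 1.77 ± 0.85 and the upstream ones by 2.06 ± 0.87 and 1.78 ± 0.98 (limma adjusted p = 0.118, 0.0807 and 0.168). With the replicate block the peak inside the gene and the one 13.9 kb upstream passed (limma adjusted p = 0.0388 and 0.0311). For the peak inside the gene 1 library decided the value: it was 0.17 without mitotic withdrawn replicate 1 and 3.36 without replicate 2 (limma adjusted p = 1.0 and 0.00479). The peak 12.7 kb upstream moved likewise, to 0.47 and 3.10 (limma adjusted p = 1.0 and 0.0242). The peak 13.9 kb upstream passed without mitotic withdrawn replicate 2 (2.49; limma adjusted p = 0.041) and without mitotic DOX replicate 1 (2.69; limma adjusted p = 0.0331). The count of 2 became 0 without mitotic withdrawn replicate 1, when 0% of all peaks were called, and 5 without replicate 2, when 48.8% were. It was 0 without mitotic DOX replicate 2 or 4 and 1 without replicate 3, with 9.25%, 6.21% and 13.9% of all peaks called. Between mitosis and interphase after withdrawal no difference passed at the 6 peaks (limma adjusted p = 0.998 each), as for 0% of all peaks. Whether the response to DOX differed between mitosis and interphase was not tested.

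**Figure D5:**
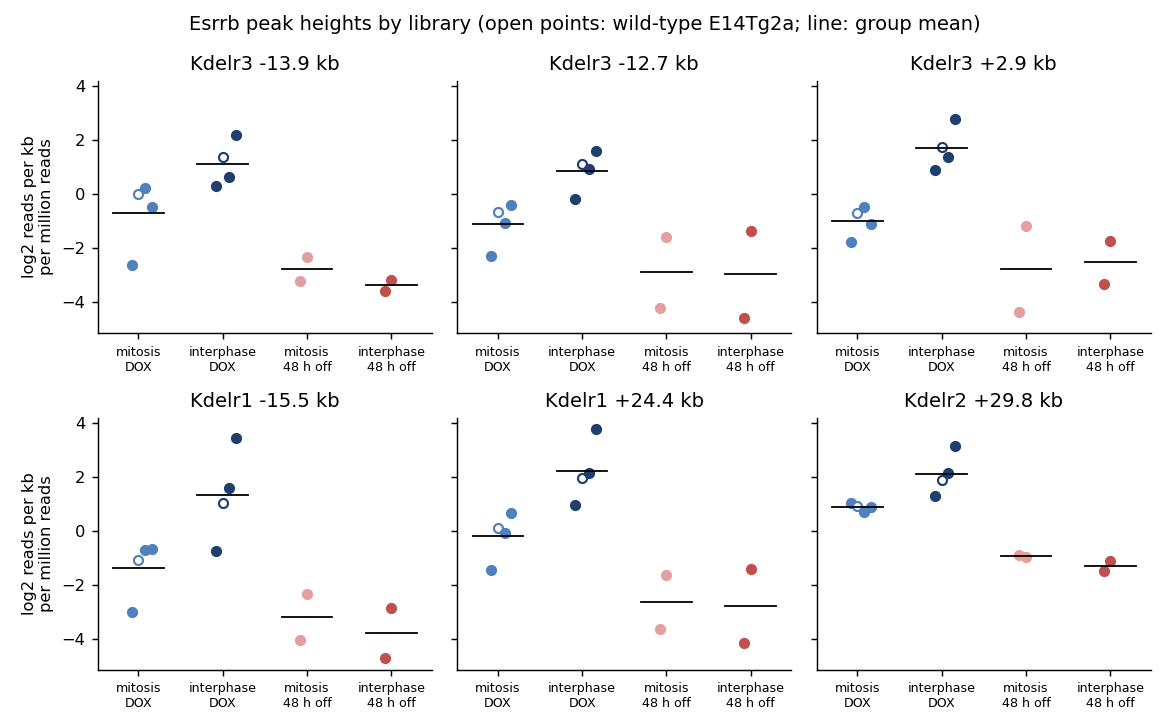
Height of the 6 Esrrb peaks within 50 kb of a KDEL receptor start (log2 reads-per-million per kb of peak; y axis) in mitosis and interphase with DOX (4 libraries each) and 48 h after withdrawal (2 each). Points are libraries (open, wild-type E14Tg2a) and lines group means. Mitotic DOX libraries of the peak inside Kdelr3 lie at -1.77 to -0.50, below the interphase ones at 0.87 to 2.78.

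Around Kdelr3, without the replicate block, Csnk1e was called lower after withdrawal in late G1 and G2, and Kcnj4 only as a 3-phase mean. Ddx17 showed no called change. Kcnj4, a potassium channel gene read away from Kdelr3 with its start 11.2 kb upstream, averaged 2.45 ± 0.540, 2.02 ± 0.216 and 1.64 ± 0.718 CPM after withdrawal in early G1, late G1 and G2, against 4.21 ± 1.84, 3.19 ± 0.670 and 3.33 ± 1.55 CPM with DOX (SD, n = 3 each). No single phase passed (log2 changes -0.78, -0.66 and -1.04; edgeR adjusted p = 0.515, 0.485 and 0.192 by phase), except G2 with the replicate block (edgeR adjusted p = 0.0346). As the mean of the 3 phases, a contrast added after seeing the data, Kcnj4 fell by 0.83 ± 0.21 on the log2 scale (edgeR adjusted p = 0.0141). Cells of the 3 phases with 1 replicate number may come from the same culture, which this contrast does not account for. Kcnj4 had 19 to 86 exonic counts per library. Csnk1e, which encodes casein kinase 1 epsilon and starts 74.4 kb upstream, outside the 50 kb window, was examined at the wider limit of 100 kb. In early G1 it had 40.1 ± 1.21 CPM after withdrawal and 60.7 ± 8.45 CPM with DOX (log2 change -0.60 ± 0.13; edgeR adjusted p = 0.0853, and 0.00475 with the replicate block). It fell in late G1 (39.1 ± 1.55 CPM after withdrawal and 62.3 ± 5.0 CPM with DOX; log2 change -0.67 ± 0.13; edgeR adjusted p = 0.0321) and in G2 (33.6 ± 6.02 and 60.9 ± 3.07 CPM; -0.86 ± 0.13; edgeR adjusted p = 0.00427). The late G1 call ended without any 1 of the 6 libraries compared (edgeR adjusted p from 0.0577 to 0.162). Of the other genes with starts between 50 and 100 kb of a receptor (Dmc1, Lmtk3, Ccdc114, Cyth2, Zdhhc4, Daglb and E130309D02Rik), none was called in any phase or in the mean of the 3, with or without the block.

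Ddx17, an RNA helicase gene on the opposite strand, overlaps the last 45 bases of Kdelr3. Its exons had 384 ± 13.2 CPM after withdrawal and 383 ± 28.2 CPM with DOX in early G1, 385 ± 4.61 and 391 ± 18 in late G1, and 395 ± 17.3 and 399 ± 30.9 in G2. The library kit marks strand, but the sources do not say whether counting used it, and reads in the overlap may have been given to either gene. Around Kdelr1, the genes Grin2d, Emp3, Tmem143, Kcnj14 and Grwd1 were tested and Syngr4 was too low to be, and around Kdelr2 Grid2ip was tested. None of the 8 tested genes within 50 kb of a receptor was called in a single phase, where 0.163%, 0.461% and 0.972% of all genes were called in early G1, late G1 and G2. As the mean of 3 phases Kcnj4 was the only 1 of the 8, against 16.9% of all genes; Emp3 and Tmem143 (-0.50 ± 0.18 and -0.21 ± 0.08) passed with the replicate block (edgeR adjusted p = 0.0344 and 0.0385) and not without it (0.0705 and 0.0931). With the block 36% of all genes were called in that mean, and 11.2% in G2.

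In lists of KDEL-tailed ER proteins, transport between ER and Golgi and the unfolded protein response, how many genes were called depended on the replicate block. Of 133 tested genes in 5 lists, 1 passed in a single phase: Rcn1, a calcium-binding ER protein with a KDEL-type tail, which fell in G2 to 55.7 ± 4.36 CPM after withdrawal, against 90.0 ± 6.62 CPM with DOX (log2 change -0.69 ± 0.12; edgeR adjusted p = 0.0106), where 0.632% of all genes were called lower. That call ended without G2 withdrawn replicate 1 or 3 and without G2 DOX replicate 1 or 2 (edgeR adjusted p from 0.0553 to 0.063). With the replicate block, 3 genes were lower and 1 higher in early G1, 7 and 6 in late G1, and 9 and 6 in G2, beside 2.2% of all genes lower and 1.83% higher in early G1, 4.24% and 4.8% in late G1, and 5.44% and 5.77% in G2. As the mean of 3 phases, 16 of the 133 were lower and 11 higher, beside 8.47% lower and 8.43% higher among all genes, and with the block 29 and 24, beside 18% of all genes each way. Cells of all 3 phases with 1 number may come from the same culture, which that test does not account for. The lower count was 10 without early G1 withdrawn replicate 3, 8 without early G1 DOX replicate 2, 7 without late G1 DOX replicate 2 and 9 without G2 DOX replicate 2; the higher count was 7 without early G1 withdrawn replicate 1 or G2 DOX replicate 2. Over the 18 fits that left out a library, 5.88 to 9.05% of all genes were lower and 6.35 to 10.3% higher.

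Of the 45 genes listed as soluble ER proteins with a KDEL-type tail, 6 fell and 2 rose as the mean of 3 phases. Among all genes 8.47% were lower and 8.43% higher in that mean. The tails were not checked against protein sequences, so the list may hold proteins that are not cargo of the receptors. The median log2 change of the list was -0.07 against 0.00 for all genes. Rcn1 fell by 0.56 ± 0.07 on the log2 scale (edgeR adjusted p = 8.39e-05), Serpinh1, a collagen chaperone, by 0.35 ± 0.11, and Mesdc2, a chaperone of Wnt co-receptors, by 0.30 ± 0.07 (edgeR adjusted p = 0.0391 and 0.00602). With each of the 18 libraries left out in turn, Rcn1 and Mesdc2 passed in all 18 fits and Serpinh1 in 6 (edgeR adjusted p up to 0.107). Serpinh1 passed with the replicate block (edgeR adjusted p = 0.0079). Hsp90b1, the ER member of the Hsp90 family, rose by 0.47 ± 0.08 (763 ± 82.8 CPM after withdrawal and 548 ± 67.7 CPM with DOX; SD, n = 9 each; edgeR adjusted p = 0.00124). The abundant cargo Hspa5 had 918 ± 46.0 CPM after withdrawal and 966 ± 112 CPM with DOX, Calr 468 ± 36.6 and 466 ± 43.7, and P4hb 508 ± 69.4 and 450 ± 48.0 (SD, n = 9 each), and none of these passed (edgeR adjusted p = 0.523, 0.968 and 0.107), though P4hb did with the block (edgeR adjusted p = 0.0424).

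In the transport lists, changes went both ways, beside 8.47% of all genes lower and 8.43% higher as the mean of 3 phases. Of 17 genes of the COPI coat and its small GTPase, 2 fell and 1 rose as the mean of 3 phases: Gbf1, which activates Arf1, rose by 0.46 ± 0.11 on the log2 scale, and Copg2, a coat subunit, and Arfgap1, which acts on Arf1, fell by 0.30 ± 0.07 and 0.18 ± 0.06 (edgeR adjusted p = 0.0113, 0.00505 and 0.0484). Arfgap1 passed in 1 of the 18 fits that left out a library (edgeR adjusted p up to 0.151). Of 27 cargo receptors and tethers, 3 fell, namely Tmed3 and Tmed1 of the p24 family (by 0.43 ± 0.11 and 0.31 ± 0.09) and Gorasp2, a Golgi stacking protein (by 0.18 ± 0.05; edgeR adjusted p = 0.0204), and the tether Uso1 rose by 0.63 ± 0.11 (57.8 ± 8.95 CPM after withdrawal and 37.3 ± 5.22 CPM with DOX; edgeR adjusted p = 0.000883). With 1 library left out, Tmed3 and Uso1 passed in all 18 fits, Gorasp2 in 12 and Tmed1 in 9. Of 12 genes of COPII, the coat of outward transport, 5 rose and 1 fell, with Sec31a at 0.51 ± 0.13 and Sec24c at 0.44 ± 0.10 (edgeR adjusted p = 0.0113 and 0.00663). Sec16a, which marks ER exit sites, rose by 0.33 ± 0.09 and the coat subunit Sec24a by 0.32 ± 0.10 (edgeR adjusted p = 0.0146 and 0.0371). With 1 library left out, Sec24a passed in 11 of the 18 fits and Sec31a, Sec24c and Sec16a in all of them. Arfgap1, Gorasp2, Tmed1 and Sec24a passed with the replicate block (edgeR adjusted p = 0.0082, 0.00282, 0.000271 and 0.00381), beside 18% of all genes each way. The median log2 changes of these lists were 0.06, -0.08 and 0.08.

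Of 32 regulators and targets of the unfolded protein response, 4 fell and 2 rose as the mean of 3 phases, with a median log2 change of -0.01. Among all genes 8.47% were lower and 8.43% higher in that mean. Atf4, a transcription factor of the response, fell by 0.56 ± 0.19 (206 ± 61.9 CPM after withdrawal and 306 ± 78.3 CPM with DOX; edgeR adjusted p = 0.0492) and Trib3, one of its targets, by 0.58 ± 0.16 (edgeR adjusted p = 0.0226). Derl1, a part of the machinery that removes misfolded proteins from the ER, fell by 0.30 ± 0.08 (edgeR adjusted p = 0.0186). Creb3l1, an ER-bound transcription factor, rose by 0.77 ± 0.25 at a low level (3.24 ± 1.54 CPM after withdrawal and 1.92 ± 0.494 CPM with DOX; edgeR adjusted p = 0.045). With 1 library left out, Atf4 passed in 6, Creb3l1 in 7, Trib3 in 13 and Derl1 in 17 of the 18 fits (edgeR adjusted p up to 0.111, 0.0974, 0.0654 and 0.0525). With the replicate block Atf4, Creb3l1, Trib3 and Derl1 passed in that mean (edgeR adjusted p = 1.31e-05, 0.000839, 0.000278 and 0.00377), beside 18% of all genes each way. Atf4 also passed in early G1, late G1 and G2 with the block (edgeR adjusted p = 0.0493, 0.00868 and 0.00204), but not without it (0.712, 0.494 and 0.356). Xbp1 had 139 ± 13.7 CPM after withdrawal and 137 ± 16.8 CPM with DOX and Ddit3 23.5 ± 5.72 and 22 ± 2.86 CPM (SD, n = 9 each), and neither passed (edgeR adjusted p = 0.903 and 0.657).

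The genes whose exonic log2 CPM ran most like Kdelr3 over the 18 libraries were Ly6g6e, Ist1, Ddah2, Ppp2r2c and Lrrc34 (Pearson r = 0.976, 0.975, 0.966, 0.966 and 0.956). Their log2 changes as the mean of 3 phases were -1.59 ± 0.10, -0.35 ± 0.06, -0.79 ± 0.08, -1.13 ± 0.11 and -1.15 ± 0.14, beside -2.11 ± 0.15 for Kdelr3. Kdelr3 itself had r = -0.097 with Kdelr1 and 0.383 with Kdelr2, and these last 2 had r = 0.540 with each other. Closest to Kdelr1 were Dvl3, Plbd2, Mob3a, Lrp5 and Fads1 (r = 0.857 to 0.850) and among those closest to Kdelr2 were Pdxk, Scrib, Atp6v0a2 and Gnb2 (r = 0.895 to 0.887). The libraries share the withdrawal contrast, their depth and their replicate numbers, so these correlations describe the libraries and carry no p.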

How the data were processed

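The 3 receptors, the gene lists, the peak distance and the tests were chosen with earlier results of these data known. The deposited RNA-seq tables hold raw counts made by the authors for exons and, separately, for introns of RefSeq transcripts in mm9, per the file headers. The submitters' processing notes name mm9, CASAVA 1.8, Bowtie and DESeq2 without a role. Neither they nor the other sources used here give the counting tool, the annotation version, the strand setting, the peak caller or the rule of the Lost and Bookmarked classes. The intronic table ends in 2377 blank lines, and 27 symbols turned into dates were restored through their accessions. The deposited peak table gives heights that the values show to be log2 reads-per-million per kb of peak (whole reads in 100% of peaks at a tolerance of 0.05 read; empty peaks at 0.9 read), so limma was used where counts had been allowed for. Its noco columns were read as mitosis, matched by number, although no label has that word.

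All 18 RNA-seq libraries entered 1 edgeR 4.0.16 fit per table in R 4.3.3 (6 group means, filterByExpr, TMM scaling, quasi-likelihood tests), and all 12 ChIP-seq libraries 1 fit of limma 3.58.1 (trend, 4 group means), with Benjamini-Hochberg adjustment over all genes or peaks at 0.05. An SE in edgeR is the absolute log2 change divided by the square root of F. Both fits were tested on simulated data. Intronic totals ran from 6101980 to 20847419 counts, and ChIP-seq reads in peaks from 57392 to 2336956. Withdrawn and DOX libraries of 1 number deviated together in exons (r across genes 0.114 to 0.527 in all 9 pairs), so the replicate block counts as a pairing there. In introns 1 pair had r = 0.0916, and in ChIP-seq the pairs ran from -0.319 to 0.504.

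Named genes are the receptors, Esrrb, all genes and peaks within 50 kb of a receptor start, list genes past the threshold (at most 4 per list and contrast), Hspa5, Hsp90b1, Calr, P4hb, Xbp1, Atf4 and Ddit3, and the 5 genes most correlated with each receptor, of which 1 for Kdelr2 is not reported here. Csnk1e was named from the 100 kb alternative. The alternatives were RLE scaling, DESeq2 1.42.0, no low-count filter, the replicate block and each library left out, and for peaks centring, leaving out E14Tg2a and edgeR on the recovered reads. This last one, the mean of 3 phases for lists and neighbours, and their left-out libraries were added after seeing the data.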

Additional observations from a re-analysis of the deposited data

Results flagged for a closer look

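At the peak 15.5 kb upstream of Kdelr1, replicate 1 of the mitotic DOX group stood apart from the other 3 libraries, with a log2 height of -3.03 against -1.07, -0.73 and -0.68. Its gap to the nearest library was 0.837 of the range of the group, above Dixon's critical value of 0.829 for 4 samples. It was the only library of 12 groups of 4 (6 peaks, 2 groups) to do so, and chance gives about 1 in 20 for each group tested. The 12 groups are the same libraries seen at 6 peaks, so they are not independent. This library was also the lowest of its group at the downstream Kdelr1 peak and at the Kdelr3 peaks. At the Kdelr2 peak it was the highest. Its height at the upstream Kdelr1 peak rests on 6 reads, against 19 to 29 in the other 3. Without this library the log2 difference of mitosis from interphase at this peak was -2.15 (limma adjusted p = 0.0242). The main fit called 91.4% of all peaks lower in mitosis, so nothing is read from this peak passing.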

How the results depend on the processing

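Leaving out each of the 6 libraries of a phase, the exonic log2 change of Kdelr3 ranged from -2.13 to -1.87 in early G1, -2.39 to -1.93 in late G1 and -2.53 to -2.02 in G2. RLE scaling, DESeq2, no low-count filter and the replicate block moved no receptor's withdrawal value by more than the spread of its replicates. Leaving out 1 library of a group can hardly shift a value that far, so those fits were not judged by this spread. Intronic counts in place of exonic ones gave Kdelr3 7.07% of receptor counts after withdrawal and 12% with DOX in early G1, 11.9% with DOX in late G1 and 12.5% with DOX in G2. No receptor was called between phases under any alternative, the replicate block included (0 in each). Centring the heights of each library left 0 of the 6 peaks called between mitosis and interphase with DOX, beside 322 higher and 177 lower of all 14559. With DOX against withdrawal in mitosis it also left 0 called, beside 6 higher of all 14559. It turned the difference of mitosis from interphase positive at the Kdelr2 peak (0.89) and at the upstream Kdelr3 peaks (0.28 and 0.14), and DOX minus withdrawn in interphase negative at the Kdelr2 peak (-0.23). With each library left out, the count called lower in mitosis was 4 to 6, where the main fit called 91.4% of all peaks lower. In mitosis the count of 2 ranged from 0 to 5, with 0 without E14Tg2a, 0 by edgeR on recovered reads and 4 with the replicate block, where 4.5%, 0% and 36.8% of all peaks were called; the block added the Kdelr3 peaks inside the gene and 13.9 kb upstream. Of the list genes, the replicate block called 3, 7 and 9 lower and 1, 6 and 6 higher in early G1, late G1 and G2 (2.2%, 4.24% and 5.44% of all genes lower, 1.83%, 4.8% and 5.77% higher). DESeq2 called 1 lower in early G1 (0.582% of all genes), and 2 lower and 3 higher in late G1 (1.22% and 1.24%). As the mean of 3 phases 16 were lower and 11 higher (7 to 16 and 7 to 12 with 1 library left out; 29 and 24 with the block, 18% of all genes each way). Leaving out 1 library gave 0 to 1 lower in G2. Of genes near the receptors, 1 was called in late G1 and in G2 within 100 kb (0.461% and 0.972% of all genes), and 1 in G2 with the block (11.2%). As the mean of 3 phases the count was 1 within 50 kb and 2 within 100 kb (16.9% of all genes), and 3 with the block (36%). With 1 library left out it was 1 to 2, where 5.88 to 9.05% of all genes were lower and 6.35 to 10.3% higher. The cause of these shifts was not tested, apart from centring, which removes by construction what all peaks share. Kdelr3 introns and the upstream peaks rest on few reads, which limits their precision.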
